A study of Mus musculus with 31 samples.

Results

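Skin of C3H/HeJ mice treated for 6 weeks with the topical inhibitor coded jak1i was compared with skin of the same arm at 0 weeks. The comparison takes 6 of the 31 arrays of the series, 3 labelled jak1i at 6 weeks and 3 labelled jak1i at 0 weeks, and covers all 18193 genes that the arrays name through a probe set of a single gene. The series title places the mice in a study of established AA, read here as alopecia areata. Its arms received jak1i, jak3i or PBS, a salt solution used as the control, and each arm has 3 arrays at 0, 6 and 12 weeks, with 2 more per inhibitor at 24 weeks. PBS at 0 and 6 weeks, jak3i at 0 and 6 weeks and jak1i at 12 weeks, with 3 arrays each, serve as the groups of reference here. All groups share the strain, the tissue and the disease, no other genetic change is named, and age, sex and dose are not given in the sources used here. Both compounds carry code names in the labels, and nothing on their structure is used. The series text calls the replicates biological, whether the same mice were sampled at both times is not stated, and p-values measure the spread between these samples.

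In alopecia areata, cytotoxic CD8 T cells that carry the receptor NKG2D gather around the growing hair follicle, which then loses its shaft. These cells release interferon-γ, whose receptor signals through JAK1 and JAK2 to STAT proteins, and the STAT proteins switch on antigen presentation genes and the chemokines that call in more T cells. Cytokines of the common γ-chain family, such as interleukin 2 and interleukin 15, signal through JAK1 and JAK3 in the T cells themselves. C3H/HeJ mice develop a spontaneous form of the disease.

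The values are log2 expression values, so a difference of 1 is a factor of 2. Arrays within the 0-week group correlated at r = 0.980 to 0.989 over all genes, arrays within the 6-week group at 0.959 to 0.983, and arrays of different groups at 0.936 to 0.978. The tissue label was borne out by the keratin genes Krt5 and Krt1 of the epidermis, which lay between 12.23 and 13.74 on all 6 arrays. Replicate 2 at 6 weeks stood apart in the genes of the hair follicle. The mean of 32 hair shaft genes, relative to all 31 arrays, was 2.51 there, against -2.37 and -1.09 on replicates 1 and 3 and 0.13 to 2.51 on the 3 arrays at 0 weeks. The skeletal muscle list was highest on replicate 1 at 6 weeks, at 1.41, against 0.19 and 0.32 on the other two 6-week arrays and -0.56 to 0.51 at 0 weeks. Results are therefore also given without single arrays where that ends a call or moves a count by over 1.5 times.

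**Figure D1:**
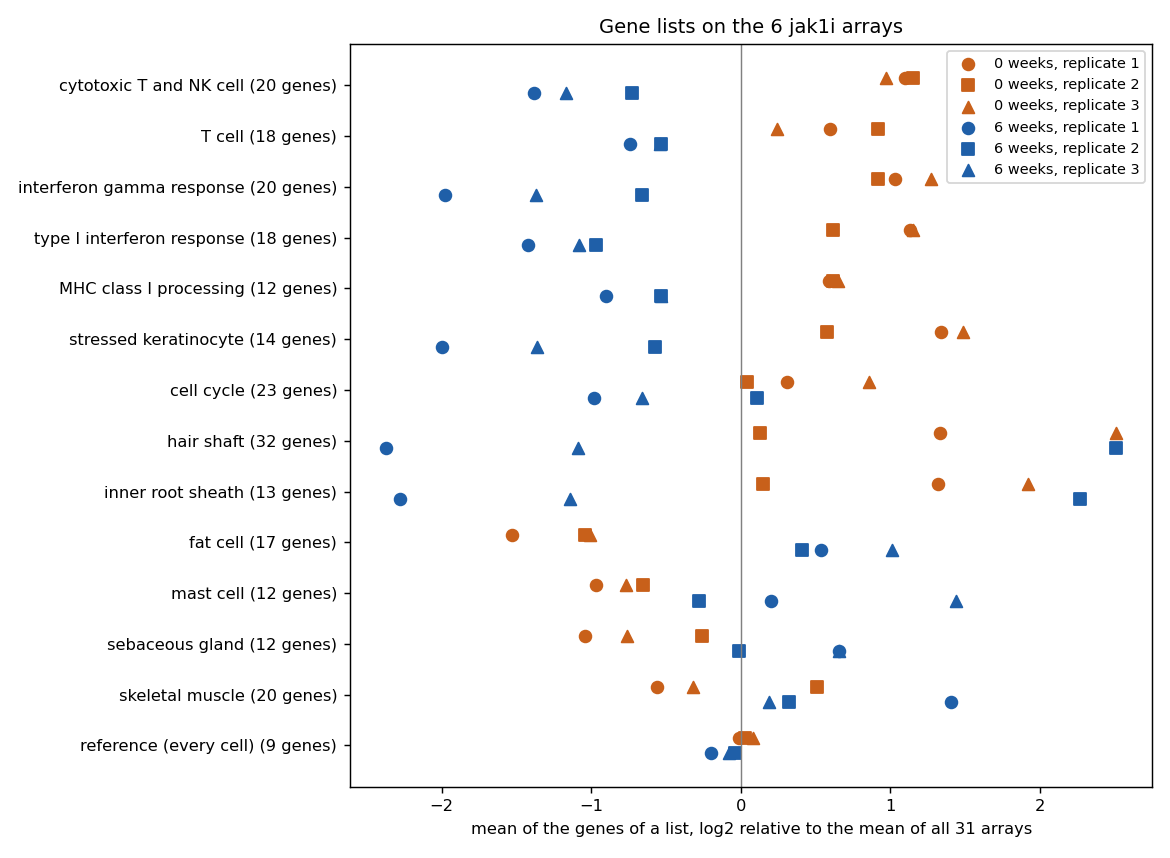
Mean of the measured genes of 14 lists on each of the 6 jak1i arrays (x axis, log2 relative to the mean of all 31 arrays; 1 point per array, colour by time, shape by replicate). The cytotoxic and interferon lists separate the times on all arrays, whereas 6-week replicate 2 lies at 2.51 in the hair shaft list, level with the highest array at 0 weeks.

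Over 6 weeks, genes of cytotoxic T cells, of the interferon response and of stressed epidermis fell. Some genes of fat cells, mast cells and sebaceous glands rose, with counts that depended on single arrays. A gene was called changed at an adjusted p under 0.05 (limma, Benjamini-Hochberg over all genes), which held for 2250 of 18193 genes or 12.4%, with 1080 higher (5.94% of all genes) and 1170 lower (6.43%). Of these, 407 rose and 362 fell by at least a factor of 2, and the largest changes leaned downward, with 32 genes lower and 17 higher by at least a factor of 8. The values of both groups did not overlap for 2149 of the called genes, against 27.1% of all genes. Without jak1i at 6 weeks replicate 1, 506 genes passed, and without 6-week replicate 3, 943. Leaving out replicate 1 or 2 at 0 weeks left 926 and 1350, and fitting the 6 arrays alone left 672. Without 0-week replicate 1, 1 fat cell gene and 0 mast cell or sebaceous gland genes were called higher.

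**Figure D2:**
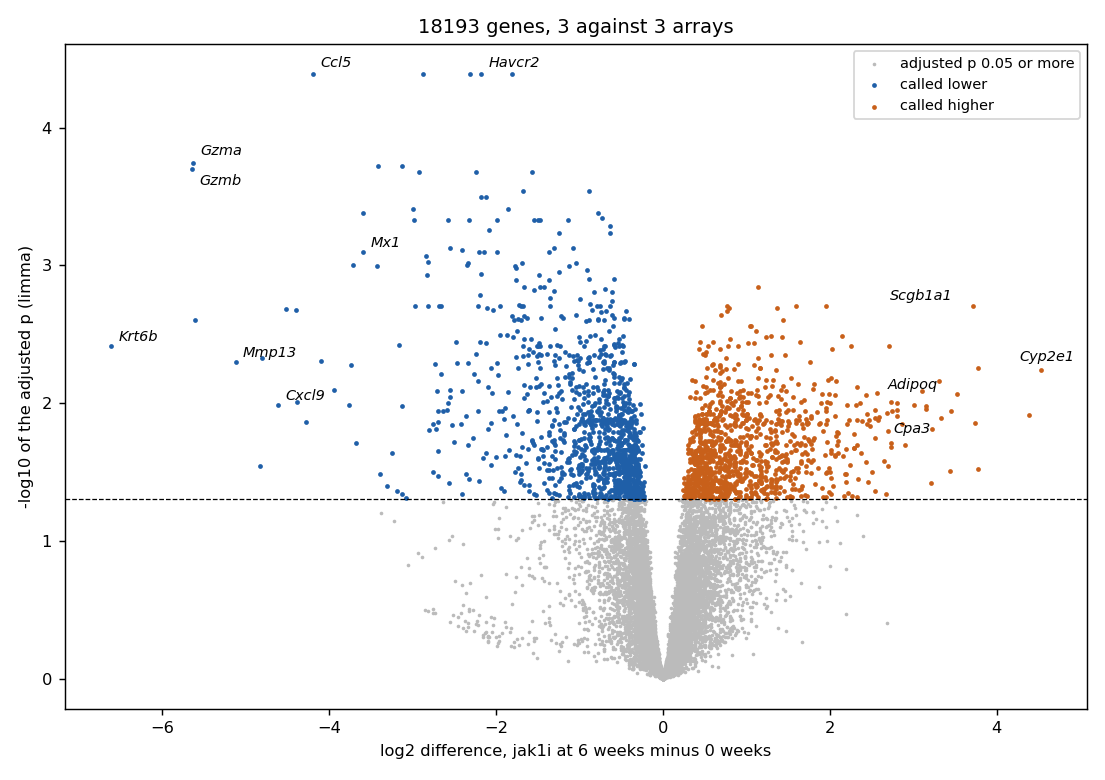
Each point is 1 of 18193 genes: x axis, log2 difference of jak1i at 6 weeks minus 0 weeks; y axis, -log10 of the adjusted p from limma, with the dashed line at an adjusted p of 0.05. Blue genes (1170) were called lower and orange genes (1080) higher, and the genes furthest to the left include Krt6b, Gzma and Gzmb.

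**Figure D3:**
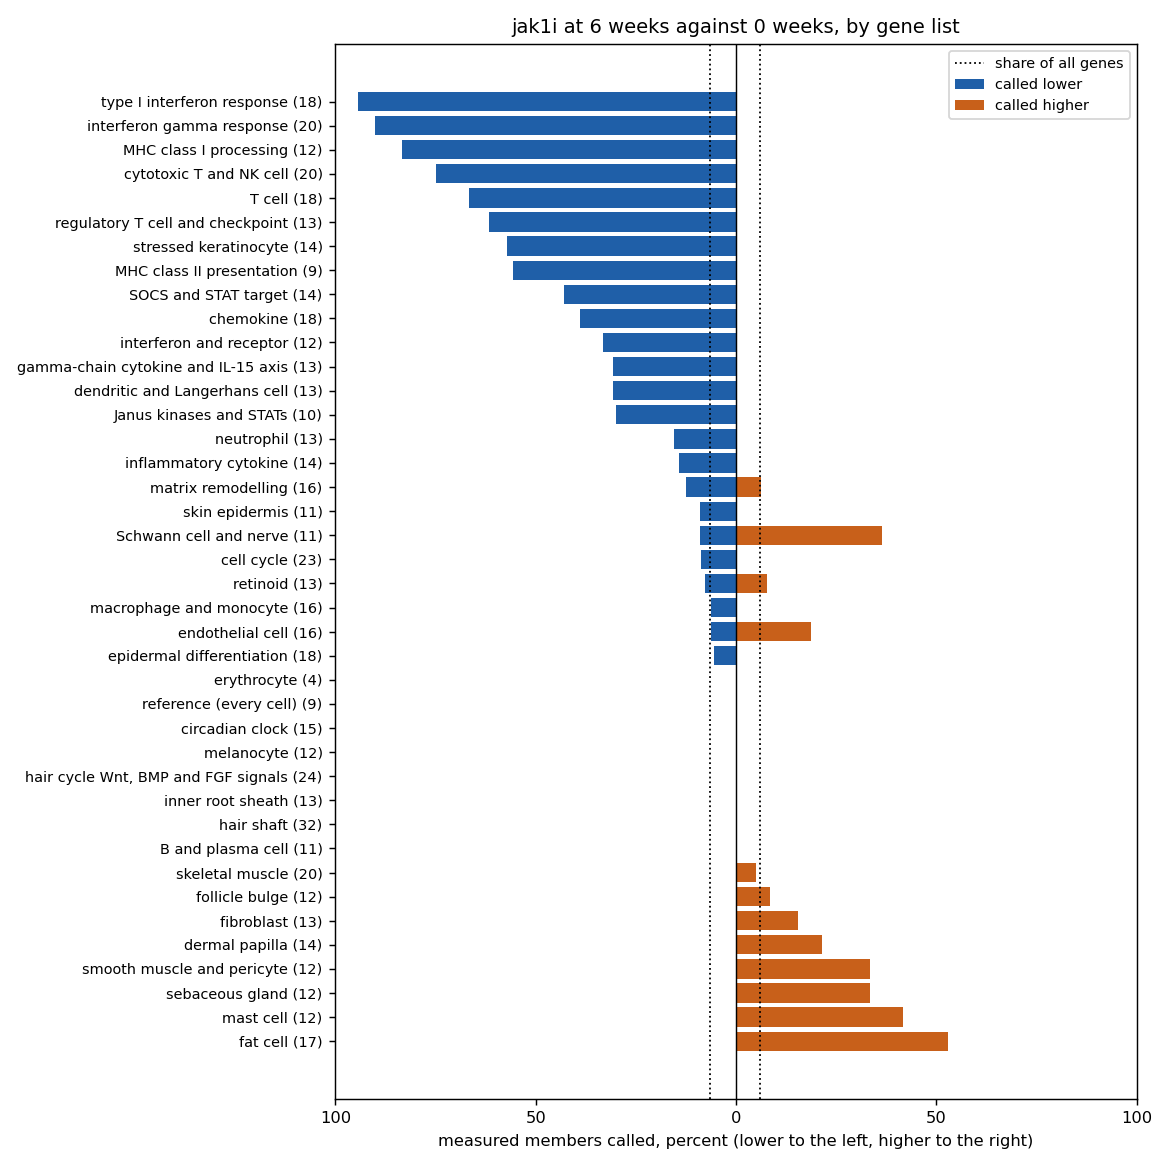
Share of the measured members of each of 40 gene lists that was called lower (blue, to the left) or higher (orange, to the right), with the number of measured members in brackets; dotted lines mark the share over all genes, 6.43% lower and 5.94% higher. The interferon, antigen presentation and T cell lists fill the left side and the fat, mast and gland lists the right.

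Genes of killer lymphocytes fell together. Gzmb, a protease that cytotoxic cells inject into their targets, read 10.71, 10.25 and 10.59 at 0 weeks and 4.99, 4.75 and 4.91 at 6 weeks. Gzma, the second main granule protease, read 11.98, 11.35 and 9.79 and then 5.20, 5.82 and 5.20. All 3 arrays at 6 weeks lay below the array medians over all probe sets, 6.05 to 6.24, for both genes, and no array of one group reached the other. The log2 difference was -5.64 (SE 0.73, adjusted p = 0.0002) for Gzmb and -5.63 (SE 0.71, adjusted p = 0.00018) for Gzma. With no background reading used here, these sizes are not exact folds, since the 6-week values may lie at the floor of the probes. Ccl5, a T cell chemokine made in quantity by cytotoxic cells, fell from 10.89, 11.60 and 10.52 to 6.35, 7.39 and 6.69, a difference of -4.19 (SE 0.47, adjusted p = 4.1e-05). Klrc1, the inhibitory lectin receptor NKG2A, fell by 3.41 (SE 0.44) and Prf1, the pore-forming perforin, by 1.57 (SE 0.21). Klrk1, which encodes NKG2D, read 7.11, 7.46 and 6.88 and then 4.80, 6.00 and 5.69, a fall of 1.66 on the log2 scale (SE 0.32, adjusted p = 0.00345). In all, 15 of 20 measured genes of the cytotoxic T and NK cell list were called lower and 0 higher, with a median difference of -1.83 against 0 over all genes. Each of the 6 genes named here kept its call with any one of the 6 arrays left out. In whole skin, fewer cells of a type and less RNA per cell cannot be told apart.

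General T cell genes fell as well. Cd8a, the CD8 coreceptor chain, read 8.29, 8.78 and 7.80 at 0 weeks and 6.00, 6.42 and 6.08 at 6 weeks, and Cd8b1, its partner chain, fell from a range of 7.24 to 7.72 to a range of 4.81 to 5.02. Cd3g, a chain of the T cell receptor complex, fell by 2.31 (SE 0.26) and Cxcr6, a chemokine receptor of tissue T cells, by 2.92 (SE 0.39). Cd4 read 6.55, 6.76 and 6.55 at 0 weeks and 6.26, 6.36 and 6.73 at 6 weeks, so its groups overlapped, with a difference of -0.17 (SE 0.12, adjusted p = 0.402). Its values at 0 weeks lay close to the array medians, and whether the probe had room to fall was not tested. The other of its 2 probe sets differed by 0.13, and no test set Cd4 against the CD8 genes. Cxcr3, the receptor of Cxcl9 to Cxcl11, differed by -0.39 (SE 0.22, adjusted p = 0.251). The T cell list had 12 of 18 measured genes called lower and 0 higher, with a median of -0.96. The B and plasma cell list had 0 of 11 members called in either direction, with a median of -0.08 and differences between -0.45 and 0.43. At 0 weeks its members Ms4a1, Pou2af1 and Blk already lay below the array medians, at 4.37 to 4.69, 3.34 to 3.85 and 5.05 to 5.69. Sdc1 lay at 12.65 to 13.36. The absence of calls in this list therefore says little on B cells.

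Genes of receptors and ligands that activate or restrain T cells fell in part. Havcr2, the checkpoint receptor TIM-3, read 7.72, 7.43 and 7.51 and then 5.35, 5.63 and 5.15, a difference of -2.18 (SE 0.24, adjusted p = 4.1e-05). Icos, a costimulator, fell by 1.99 (SE 0.29), and Cd274, which encodes the ligand PD-L1, fell by 1.73 (SE 0.51, adjusted p = 0.0297). Pdcd1lg2, the second PD-1 ligand, differed by -1.97 with a wide SE of 0.74 and did not pass (adjusted p = 0.0823). Of 13 genes of the regulatory T cell and checkpoint list, 8 were called lower and 0 higher, and 5 were lower without replicate 1 or 3 at 6 weeks or replicate 1 at 0 weeks. Cd274 itself lost its call without any one of the 5 arrays other than replicate 2 at 0 weeks, with adjusted p between 0.0505 and 0.116.

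The 2 lists of interferon-stimulated genes had the highest shares of members called lower, and promoters are shown because many of these genes hold the same element. The interferon-stimulated response element has a core of GAAA, any 2 bases and GAAA again, with TTTC in place of GAAA when read on the other strand, to which STAT complexes and interferon regulatory factors bind. It was searched on both strands in RefSeq windows of GRCm38.p6 from 250 bases before to 50 bases after each gene start. Of the 35 genes of the interferon-γ and type I interferon lists that were called lower, 25 had a window, and 15 of these (60.0%) held the core. The core was in 3.63% of the 14452 tested genes with a window, in 8.22% of all genes called lower and in 3.44% of those called higher. The 8.22% includes these list genes. Both lists were made of genes known to respond to interferon, so the 60.0% follows from that choice and says nothing on the fall. Nearly all measured members were called lower, so uncalled members were not compared. The shorter palindrome TTCNNNGAA, which STAT dimers bind and which reads alike on both strands, was in 7 of the 25 (28.0%) and in 8.57% of all tested genes. The 4 windows printed here are those of the largest falls with the core, which is in capitals. Cxcl10 lies at chr5:92348840-92349139 on the minus strand, Ifit1 at chr19:34640639-34640938 on the plus strand, Oas1a at chr5:120907476-120907775 on the minus strand and Igtp at chr11:58199306-58199605 on the plus strand, each printed 5′ to 3′ along its gene.
Cxcl10: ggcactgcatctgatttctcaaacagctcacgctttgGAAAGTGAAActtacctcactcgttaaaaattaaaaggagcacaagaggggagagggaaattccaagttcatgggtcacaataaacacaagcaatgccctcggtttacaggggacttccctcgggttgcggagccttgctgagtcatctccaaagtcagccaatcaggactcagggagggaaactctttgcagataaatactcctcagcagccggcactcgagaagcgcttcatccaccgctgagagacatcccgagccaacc
Ifit1: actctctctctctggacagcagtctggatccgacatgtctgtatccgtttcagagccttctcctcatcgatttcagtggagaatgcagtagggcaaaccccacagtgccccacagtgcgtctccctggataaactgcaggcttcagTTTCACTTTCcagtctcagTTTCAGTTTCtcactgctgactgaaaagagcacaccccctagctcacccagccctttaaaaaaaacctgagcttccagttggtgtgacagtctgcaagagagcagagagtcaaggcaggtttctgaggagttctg
Oas1a: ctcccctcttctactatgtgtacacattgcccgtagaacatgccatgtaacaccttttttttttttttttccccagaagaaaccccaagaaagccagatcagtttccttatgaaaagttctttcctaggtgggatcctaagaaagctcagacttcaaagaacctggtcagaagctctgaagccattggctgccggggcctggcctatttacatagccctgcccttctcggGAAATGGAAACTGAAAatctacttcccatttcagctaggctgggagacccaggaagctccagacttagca
Igtp: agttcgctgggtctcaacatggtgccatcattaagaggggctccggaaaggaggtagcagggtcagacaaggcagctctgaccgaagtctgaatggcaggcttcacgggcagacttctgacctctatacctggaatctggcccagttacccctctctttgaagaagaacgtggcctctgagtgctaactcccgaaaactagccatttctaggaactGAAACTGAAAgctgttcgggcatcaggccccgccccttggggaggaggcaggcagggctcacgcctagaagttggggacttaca
The core began 213 bases before the start of Cxcl10 and 34 bases before that of Igtp. Ifit1 held it at 104 and at 85 bases, and Oas1a at 20 and at 14 bases, where both copies overlap. A match describes these letters and is no proof of a binding site. Cxcl9, Ubd and Oasl2, which fell by 4.61, 4.27 and 3.71 on the log2 scale, held no core in their windows.

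The chemokines induced by interferon-γ had some of the largest falls, and their 6-week arrays differed widely among themselves. Cxcl9 read 13.00, 12.80 and 12.84 at 0 weeks and 6.31, 10.31 and 8.20 at 6 weeks, and Cxcl10 read 11.02, 10.36 and 11.49 and then 5.04, 8.71 and 5.99. In both, 6-week replicate 2 was the highest of its group yet stayed below every array at 0 weeks. The differences were -4.61 (SE 1.07, adjusted p = 0.0104) for Cxcl9, -4.38 (SE 1.01, adjusted p = 0.00986) for Cxcl10 and -4.80 (SE 0.97, adjusted p = 0.00471) for Cxcl11, the third chemokine of the set. Ubd, a ubiquitin-like protein, fell by 4.27 (SE 1.06), Igtp, a GTPase of cell defence, by 2.80 (SE 0.72), and Irf1, a transcription factor of the response, by 1.62 (SE 0.38). Of 20 measured genes of the interferon-γ list, 18 were called lower, 0 higher, and the groups of all 20 did not overlap, with a median of -2.28. Without jak1i at 6 weeks replicate 1, the lowest array of this list at -1.98, 3 of the 20 passed, and each other omission left between 13 and 18. Cxcl9, Cxcl10, Ubd, Igtp and Irf1 were among those that then missed, at adjusted p of 0.0776, 0.0714, 0.0951, 0.0898 and 0.0651, while Cxcl11 kept its call. Igtp, named for its promoter, also missed without 6-week replicate 3 (adjusted p = 0.0519). Ifng itself, the cytokine at the head of this response, read 7.07, 6.59 and 8.01 and then 4.49, 4.98 and 4.09, a difference of -2.71 (SE 0.60, adjusted p = 0.00821).

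The antiviral genes that type I interferon induces fell on all 3 arrays with less spread. Mx1, an antiviral GTPase, read 8.90, 8.65 and 9.24 at 0 weeks and 5.44, 5.24 and 5.34 at 6 weeks. Ifit1, which binds viral RNA, read 10.59, 9.82 and 10.63 and then 6.57, 7.19 and 7.03. Neither gene had overlapping groups, and for Mx1 replicate 2 was the lowest array. The differences were -3.59 (SE 0.56, adjusted p = 0.0008) for Mx1, -3.42 (SE 0.55) for Ifit1, -3.71 (SE 0.60) for Oasl2 and -2.84 (SE 0.45) for Oas1a, the last pair being members of the oligoadenylate synthetase family. Of 18 measured genes, 17 were called lower and 0 higher, with a median of -1.97 and differences from -3.71 to -1.05. The 4 named genes kept their calls with any one array left out.

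Antigen presentation genes of class I and class II fell. Tap1 and Tap2, which together carry peptides into the endoplasmic reticulum, fell by 1.69 (SE 0.27) and 1.70 (SE 0.31). Tap1 read 10.74, 10.94 and 11 at 0 weeks and 8.98, 9.33 and 9.31 at 6 weeks, so both groups were tight and apart. Psmb9 and Psmb10, subunits of the immunoproteasome, fell by 1.66 (SE 0.36) and 1.75 (SE 0.33). In the class I list 10 of 12 genes were called lower, with a median of -1.44, and 6 were lower without 6-week replicate 1, where Psmb9 reached an adjusted p of 0.0531. In the class II list 5 of 9 were called lower, with a median of -0.95. Its members include Ciita, the master regulator of class II genes, with a fall of 1.26 (SE 0.27), Cd74, the invariant chain, with a fall of 0.95 (SE 0.25), and H2-DMa, a peptide-loading chain, with a fall of 0.97 (SE 0.28). Without 6-week replicate 1, 0 of the 9 passed, and without 0-week replicate 3, 1 passed, with Cd74 at an adjusted p of 0.0511 and H2-DMa at 0.103. H2-DMa also missed without 0-week replicate 2 (adjusted p = 0.0692).

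None of the 4 Janus kinase genes was called, although Jak2 lay at the threshold. Jak1 read 10.58, 10.68 and 10.33 at 0 weeks and 10.37, 10.15 and 10.69 at 6 weeks, with overlapping groups and a difference of -0.13 (SE 0.15, adjusted p = 0.629). Jak2 differed by -0.45 (SE 0.15, adjusted p = 0.0504) and passed without 0-week replicate 2 (adjusted p = 0.0473), and of its 2 probe sets, at -0.72 and -0.45, 1 passed when all probe sets were tested. Jak3 differed by -0.37 (SE 0.14, adjusted p = 0.0976) and Tyk2 by 0.12 (SE 0.11, adjusted p = 0.541). Among the STAT genes, Stat2 read 8.78, 8.36 and 8.87 and then 5.95, 6.68 and 6.83, a difference of -2.19 (SE 0.37, adjusted p = 0.00164). Stat3 fell by 0.89 (SE 0.18) and Stat4 by 0.84 (SE 0.22), and these were the 3 members called lower of 10 measured, with 0 higher. Stat4 missed without 6-week replicate 1 (adjusted p = 0.0861) or 0-week replicate 2 (adjusted p = 0.058).

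Genes that STAT proteins switch on as feedback fell in part. Cish, an inhibitor induced by STAT5, read 9.88, 9.86 and 10.08 and then 8.90, 8.99 and 8.85, a fall of 1.03 (SE 0.21, adjusted p = 0.00451). Bcl3, a nuclear partner of NF-κB, fell by 1.87 (SE 0.35, adjusted p = 0.00318), Socs1, an inhibitor of JAK kinases, by 1.03 (SE 0.32, adjusted p = 0.04), and Socs3 differed by -0.82 (SE 0.30, adjusted p = 0.0778). Of 14 genes of the SOCS and STAT target list, 6 were called lower and 0 higher. That count was 2 without 6-week replicate 1, 3 without 0-week replicate 3, and 4 without 6-week replicate 3 or without 0-week replicate 1 or 2. Socs1 lost its call without any array but 6-week replicate 2, with adjusted p between 0.057 and 0.165.

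Among cytokine receptors of the γ-chain family, Il2rb, the chain shared by the receptors of interleukin 2 and interleukin 15, read 7.08, 6.82 and 6.82 and then 5.38, 5.88 and 5.07. Its difference was -1.47 (SE 0.29, adjusted p = 0.00383), and Il7r, the interleukin 7 receptor, fell by 1.27 (SE 0.25) and Il4ra, the interleukin 4 receptor, by 1.49 (SE 0.30). Il15, the ligand that sustains cytotoxic T cells, read 7.08, 7.46 and 7.89 and then 7.53, 7.69 and 8.29, with overlapping groups and a difference of 0.36 (SE 0.24, adjusted p = 0.372). Its presenting receptor Il15ra differed by -0.57 (SE 0.23, adjusted p = 0.111). In the list of this axis, 4 of 13 genes were called lower and 0 higher. Of the interferon receptors, Ifngr1 differed by 0.17 (SE 0.20, adjusted p = 0.643), and Ifngr2 fell by 0.51 (SE 0.16, adjusted p = 0.0366). Ifngr2 lost that call without any one array other than 6-week replicate 1, with adjusted p between 0.0511 and 0.209.

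Chemokines beyond the interferon-γ set fell in part. Ccl2, which attracts monocytes, read 9.65, 9.13 and 10.59 and then 6.07, 7 and 6.93, a fall of 3.12 (SE 0.73, adjusted p = 0.0105). Ccl24, an eosinophil chemokine, differed by -2.39 (SE 0.96) and did not pass (adjusted p = 0.106). Of 18 genes in the chemokine list, 7 were called lower and 0 higher. That count was 3 without 6-week replicate 1, where Ccl2 reached an adjusted p of 0.0618, and 4 without 0-week replicate 1 or 2. Clec7a, the β-glucan receptor dectin-1 of myeloid cells, was among the 15 largest falls, at 10.94, 9.82 and 11.24 and then 5.80, 7.68 and 7.31 (difference -3.74, SE 0.77, adjusted p = 0.00526). Of the myeloid lists, 1 of 16 macrophage genes, 2 of 13 neutrophil genes and 4 of 13 dendritic cell genes were called lower and 0 higher. Their medians were -0.20, -1.01 and -0.26. Over all genes 6.43% were called lower, so the macrophage count lies near the share of all genes. All 13 neutrophil genes had negative differences. The neutrophil genes S100a8 and S100a9 differed by -2.89 (SE 1.24) and -2.12 (SE 1.18), with adjusted p of 0.132 and 0.256. Without 6-week replicate 1, 0 passed in each of these 3 lists. The neutrophil count was also 0 without 6-week replicate 3 or replicate 1 or 3 at 0 weeks, and the dendritic count was 2 without replicate 1 or 2 and 1 without replicate 3 at 0 weeks. The 1 macrophage gene missed without replicate 1 or 3 at 0 weeks as well.

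Stressed epidermis held the largest single fall of all genes. Krt6b, a keratin of wounded and rapidly dividing epidermis that also marks the follicle, read 13.27, 11.15 and 13.58 at 0 weeks and 4.82, 7.21 and 6.14 at 6 weeks. The log2 difference was -6.61 (SE 1.29, adjusted p = 0.00388). Krt16, another wound keratin, fell by 3.94 (SE 0.87), and Stfa3, a cysteine protease inhibitor, fell from 11.67, 9.53 and 12.20 to 6.29, 6.83 and 7.07, a difference of -4.40 (SE 0.78). Sprr1b, a cross-linked protein of the cell envelope, fell by 4.83 (SE 1.41, adjusted p = 0.0287), and its 6-week value was highest, 7.86, on replicate 2. Of 14 genes in the stressed keratinocyte list, 8 were called lower and 0 higher, with a median of -2.26. That count was 3 without replicate 1 or 3 at 6 weeks or replicate 1 at 0 weeks, and 4 and 5 without replicates 2 and 3 at 0 weeks. Sprr1b lost its call without any array but 6-week replicate 2, with adjusted p between 0.0554 and 0.153, while Krt6b, Krt16 and Stfa3 kept theirs. Basal and differentiated epidermis gave few calls, with 1 of 11 and 1 of 18 genes lower.

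Enzymes that act on the matrix and on retinoids changed in single members. Mmp13, a collagenase of wounds, read 9.99, 8.01 and 9.58 and then 3.64, 4.46 and 4.10, a fall of 5.12 (SE 1.05, adjusted p = 0.00506). Timp1, an inhibitor of such proteases, fell by 3.25 (SE 0.90), whereas 2 of 16 genes of the matrix list were lower and 1 higher in all. Timp1 lost its call without replicate 1 or 3 at 6 weeks or at 0 weeks, with adjusted p between 0.0534 and 0.124. Aldh1a3, which makes retinoic acid, read 11.80, 10.24 and 10.73 and then 5.37, 8.31 and 6.80, a fall of 4.10 (SE 0.84, adjusted p = 0.00497). Rbp4, the carrier of retinol, moved the other way, from 5.80, 6.58 and 6.78 to 9.53, 9.23 and 10.33 (difference 3.31, SE 0.71, adjusted p = 0.00688). These were the only called members of the 13 in the retinoid list, and both kept their calls with each array left out. Of all genes, 6.43% were called lower and 5.94% higher. Both retinoid counts and the matrix count higher lie near these shares. Ang2, a ribonuclease of the angiogenin family, fell by 3.76 (SE 0.87, adjusted p = 0.0103) and missed without 6-week replicate 1 (adjusted p = 0.0633).

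Hair shaft genes did not pass the test, and their 6-week arrays disagreed. Krt31, a keratin of the hair shaft, read 10.44, 9.02 and 11.87 at 0 weeks and 6.23, 11.95 and 7.66 at 6 weeks. Replicate 2 at 6 weeks was the highest of all 6 arrays and the other two 6-week arrays were the lowest, so the groups overlapped. The difference of -1.83 (SE 1.45, adjusted p = 0.457) did not pass, and neither did Krt71 of the inner root sheath, with 6.65, 12.37 and 8.23 at 6 weeks and -2.28 (SE 1.41, adjusted p = 0.318). In the hair shaft list 0 of 32 genes were called and the median was -1.85, and in the inner root sheath list 0 of 13 with a median of -1.78. Without 6-week replicate 2 the medians were -3.40 and -3.69, with 0 and 1 genes called. Hoxc13, a transcription factor of the shaft, differed by -0.95 (SE 0.73, adjusted p = 0.436).

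The cell cycle list followed the hair list across these arrays. Mki67, a marker of dividing cells, read 10.82, 10.57 and 11.36 at 0 weeks and 9.50, 10.64 and 9.66 at 6 weeks, a difference of -0.98 (SE 0.42, adjusted p = 0.13). Replicate 2 was again the high array at 6 weeks. Of 23 genes, 2 were called lower and 0 higher, with a median of -1.05, and 17 were called lower without that array, while 0 passed without any one of the other 5. The cytotoxic genes, by contrast, were low on replicate 2 as well, with a list mean of -0.73 there against -1.38 and -1.17 on the other two 6-week arrays and 0.97 to 1.15 at 0 weeks. Replicate 2 was still the highest 6-week array in that list, in the interferon-γ list, at -0.66, and in the stressed keratinocyte list, at -0.57. With the hair shaft mean as a covariate, 13 cytotoxic genes, 15 interferon-γ genes and 7 stressed keratinocyte genes were called lower. Without it the counts were 15, 18 and 8. The covariate took dendritic cell calls from 4 to 2, neutrophil, macrophage and fibroblast calls from 2, 1 and 2 to 0, and cell cycle calls from 2 to 5.

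In the follicle bulge list 1 of 12 genes, Krt15, was called higher and 0 lower, against 5.94% higher over all genes. In this list 3 of 12 differences were negative, with a median of 0.33. Krt15, a keratin of bulge stem cells, read 11.21, 12.75 and 11.14 and then 13.43, 12.50 and 13.11, a rise of 1.31 (SE 0.37, adjusted p = 0.0247) in which the groups overlapped. Krt15 missed without replicate 1 or 3 at 6 weeks or at 0 weeks, with adjusted p between 0.0783 and 0.13. Rspo3, an amplifier of Wnt signals, rose by 1.79 (SE 0.49) and Lepr, the leptin receptor, by 2.01 (SE 0.56), and with Sox18 these were the 3 of 14 dermal papilla genes called higher, with 0 lower. One of several probe sets of Rspo3 and of Lepr lay near 0, at 0 and -0.09. None of the 3 passed without replicate 1 or 3 at 6 weeks or replicate 1 or 2 at 0 weeks, where adjusted p lay between 0.0622 and 0.134, and Sox18 missed without 0-week replicate 3 too (adjusted p = 0.0817).

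Among the genes that rose, those of fat cells led. Adipoq, the fat cell hormone adiponectin, read 8.65, 8.92 and 9.76 at 0 weeks and 12.24, 12.30 and 13.35 at 6 weeks, an 11.5-fold rise (log2 difference 3.52, SE 0.79, adjusted p = 0.0086). Thrsp, a regulator of fatty acid synthesis, read 4.93, 7.26 and 5.62 and then 9.79, 10.38 and 10.83, a rise of 4.39 (SE 1.06, adjusted p = 0.0123). Pck1, an enzyme of glycerol and glucose synthesis, rose by 3.21 (SE 0.99, adjusted p = 0.0378) and Retn, the hormone resistin, by 2.81 (SE 0.68, adjusted p = 0.0124). No 6-week array reached the 0-week range of any of these genes, though Thrsp and Pck1 each have a further probe set near 0, at -0.07 and -0.03. Of 17 fat cell genes, 9 were called higher and 0 lower, with a median of 1.69. That count was 1 without 0-week replicate 1, 3 without 6-week replicate 3, 4 without 6-week replicate 1 and 5 without 0-week replicate 2. Adipoq kept its call throughout, Thrsp and Retn missed without 0-week replicate 1 (adjusted p = 0.0573 and 0.0631), Retn without 6-week replicate 3 (0.0556), and Pck1 missed without any array but 6-week replicate 2 (adjusted p 0.0676 to 0.125). With the muscle list mean as a covariate 4 passed, and with the hair shaft mean 5.

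Sebaceous gland genes rose on a smaller scale. Fa2h, which makes hydroxylated lipids, read 7.98, 9.21 and 8.35 and then 11.39, 10.10 and 11.39, a rise of 2.45 (SE 0.61, adjusted p = 0.0141). Far2, which makes wax alcohols, rose by 2.06 (SE 0.57, adjusted p = 0.024), and Pparg, the receptor that drives fat and gland cells, by 1.73 (SE 0.56, adjusted p = 0.0471). All 12 measured members were positive, 4 were called higher, and the median was 1.04. The count was 1 without replicate 1 or 3 at 6 weeks, 0 without 0-week replicate 1 and 2 without 0-week replicate 3. The 3 genes named here missed without each of the first 3 of these arrays, with adjusted p between 0.0601 and 0.188. Without 0-week replicate 3, Far2 and Pparg missed (adjusted p = 0.0586 and 0.0935), and without 0-week replicate 2, Pparg (0.068).

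Mast cell proteases rose with a wide spread at 6 weeks. Cpa3, a carboxypeptidase of mast cell granules, read 7.10, 8.37 and 7.56 and then 10.87, 9.68 and 12.46, a rise of 3.33 (SE 0.81, adjusted p = 0.0129). Cma1 and Mcpt4, both chymases, rose by 2.90 (SE 0.78) and 2.73 (SE 0.73), and Mrgprb1, a receptor of the Mas-related family, by 3.45 (SE 0.82). Replicate 3 was the highest and replicate 2 the lowest of the 6-week arrays for all 4 genes, yet none reached the 0-week range. In the mast cell list 5 of 12 genes were called higher and 0 lower, with a median of 1.10. That count fell to 0 without 6-week replicate 3 or 0-week replicate 1, to 1 without 6-week replicate 1 and to 3 without replicate 2 or 3 at 0 weeks. Cpa3 then had adjusted p of 0.05 to 0.0761 in the first 3 of these fits, and Mrgprb1 missed without 6-week replicate 3 (adjusted p = 0.0692). Cma1 and Mcpt4 missed in those 3 fits at 0.06 to 0.123, and Cma1 also without 0-week replicate 3 (0.0588).

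Vessel, smooth muscle, nerve and fibroblast genes rose in part. Tek, an angiopoietin receptor of vessels, read 5.61, 6.12 and 6.31 and then 7.58, 7.70 and 7.94, a rise of 1.73 (SE 0.43, adjusted p = 0.0138), whereas Flt1, a VEGF receptor, fell by 1.89 (SE 0.44, adjusted p = 0.0108). The endothelial list had 3 of 16 genes higher and 1 lower. Mbp, the basic protein of myelin, rose by 2.33 (SE 0.51, adjusted p = 0.00766), and the nerve list had 4 of 11 genes higher and 1 lower. Myl9 and Mylk, parts of the smooth muscle motor, rose by 1.26 (SE 0.29) and 1.56 (SE 0.37), in a list with 4 of 12 higher, and the fibroblast matrix genes Dcn and Dpt rose by 1.11 (SE 0.35) and 1.65 (SE 0.47), in a list with 2 of 13 higher. Without 0-week replicate 1 the counts higher were 0 for vessels, 2 for nerve, 0 for smooth muscle and 0 for fibroblasts. Without 6-week replicate 1 they were 1, 2, 0 and 0, and without 6-week replicate 3 they were 0, 3, 1 and 0. Without 0-week replicate 2 they were 1, 4, 3 and 1, and without 0-week replicate 3 they were 1, 3, 2 and 0. Tek and Flt1 missed without 0-week replicate 1 (adjusted p = 0.0635 and 0.0537), and Tek without 6-week replicate 3 (adjusted p = 0.0545), while Mbp kept its call throughout. Without 6-week replicate 1 or 0-week replicate 1, Myl9, Mylk, Dcn and Dpt missed (adjusted p 0.0519 to 0.16), and Mylk, Dcn and Dpt also without 6-week replicate 3 (0.0546 to 0.152). Dcn missed without replicate 2 or 3 and Dpt without replicate 3 at 0 weeks (0.0521 to 0.0629). In the skeletal muscle list 1 of 20 genes, the myosin gene Myh2, was called higher, by 2.70 (SE 0.69), near the 5.94% of all genes. Myh2 missed without 6-week replicate 1 or 0-week replicate 1 or 3 (0.0502 to 0.117).

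The other genes among the 15 largest rises are of several kinds. Cyp2e1, a cytochrome P450, had the largest rise, from 6.93, 8.08 and 7.37 to 12.53, 11.24 and 12.22, which is 23.2-fold (log2 difference 4.53, SE 0.95, adjusted p = 0.00573). Ces1d, a carboxylesterase, rose by 3.78 (SE 0.79, adjusted p = 0.00553), its relative Ces1f by 3.74 (SE 0.93) and Cdo1, which breaks down cysteine, by 3.15 (SE 0.74). Scgb1a1, a small secreted protein best known from airways, rose from 5.25, 5.59 and 4.51 to 9.23, 7.86 and 9.42, a difference of 3.72 (SE 0.65, adjusted p = 0.00196). Slc26a7, an anion transporter, rose by 3.77 (SE 1.11) and Panx3, a channel protein, by 3.23 (SE 0.82), each with the lowest 6-week value on replicate 2. Mylk4, a kinase of the myosin light chain kinase family, rose by 3.44 (SE 1.02) and Aadacl2fm1 of the arylacetamide deacetylase family by 3.15 (SE 0.73). Cyp2e1, Ces1d, Scgb1a1, Adipoq and Rbp4 kept their calls with each array left out. Of the 15, 7 missed without 6-week replicate 1 (adjusted p 0.05 to 0.172), 7 without 6-week replicate 3 (0.0594 to 0.125), 8 without 0-week replicate 1 (0.0538 to 0.152), 3 without 0-week replicate 2 (0.0542 to 0.101) and 2 without 0-week replicate 3 (0.0521 to 0.0676).

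Other probe sets and other fits bear on several of these groups. The weakest probe set of Tap1 lay at -0.04, of Prf1 at -0.10, of Mbp at -0.17, of Panx3 at 0.12, of Slc26a7 at 0.31 and of Mylk at 0.16, where the brightest one, used here, was called. For Tap1, 1 of 4 probe sets passed, and for Mbp, 5 of 8. Fitted on the 6 arrays alone, the count of mast cell genes fell from 5 to 0, of class II genes from 5 to 1, of checkpoint genes from 8 to 3, of dendritic cell genes from 4 to 1 and of smooth muscle genes from 4 to 1. The same fit called 3 SOCS and STAT target genes in place of 6, 5 stressed keratinocyte genes in place of 8, 2 sebaceous genes in place of 4, 2 nerve genes in place of 4, 1 dermal papilla gene in place of 3, 1 fibroblast gene in place of 2 and 5 endothelial genes in place of 3. It called 0 macrophage, bulge, skeletal muscle and cell cycle genes and 1 neutrophil gene. With the muscle mean as a covariate, 1 dermal papilla, 2 sebaceous, 2 smooth muscle, 1 endothelial and 0 fibroblast genes were called higher. The interferon-γ, type I interferon and class I lists had 17, 17 and 10 calls with the 6 arrays alone.

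**Figure D4:**
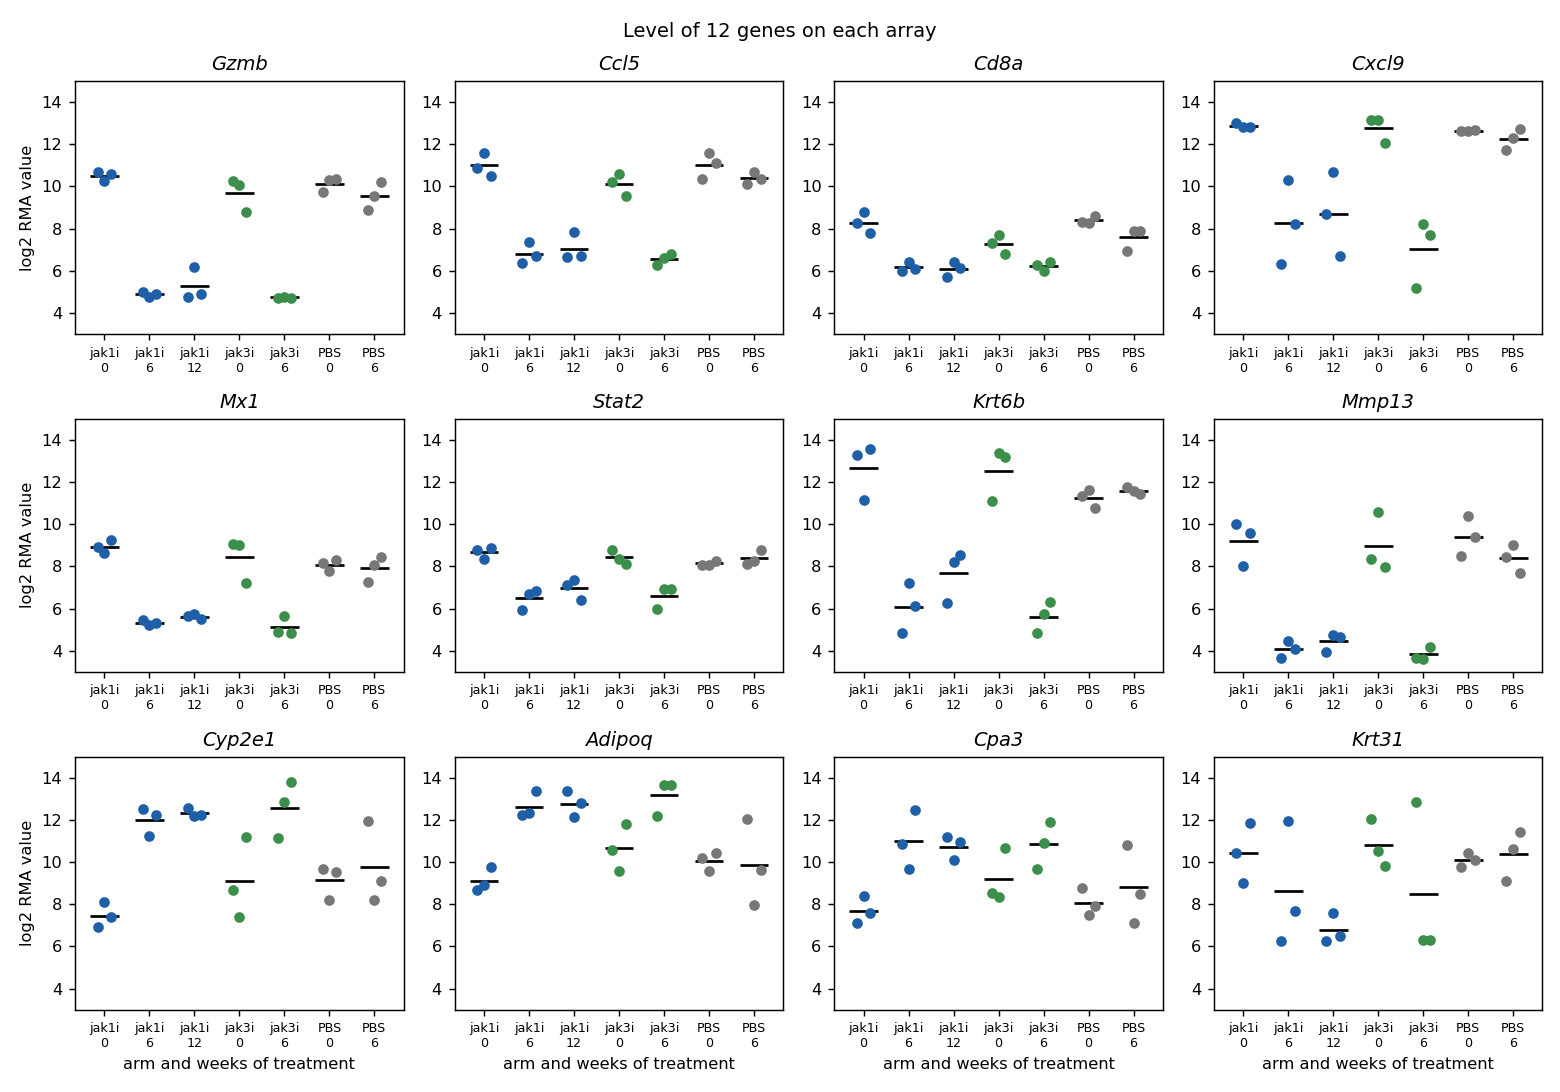
Log2 RMA value (y axis, the same in all panels) of 12 genes on each array of 7 groups (x axis, arm and weeks; points are arrays, lines are means of 3). Gzmb lies between 4.75 and 4.99 on the 3 jak1i arrays at 6 weeks and at 8.89 or above on the PBS arrays, and Krt31 shows the single high jak1i array at 6 weeks, at 11.95.

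The PBS arm over the same span serves as the background of time and handling. There, 1 of 18193 genes (0.0055%) was called, Snhg12, a long non-coding host gene of small nucleolar RNAs, which rose by 0.74 (SE 0.11, adjusted p = 0.018), and 1786 had an unadjusted p under 0.05. Gzmb read 9.74, 10.29 and 10.36 in PBS at 0 weeks and 8.89, 9.57 and 10.22 at 6 weeks, and Cxcl9 read 12.65, 12.65 and 12.66 and then 11.74, 12.31 and 12.72. Both genes had overlapping groups in PBS, and all PBS values lay above the highest 6-week value of jak1i. Of the 1080 genes higher under jak1i, 782 (72.4%) had the same sign in PBS with a median of 0.12, and of the 1170 lower genes 698 (59.7%) with a median of -0.06, against 56.7% of all genes. The median list differences in PBS were -0.33 for cytotoxic genes, 0.05 for interferon-γ genes, 0.17 for stressed keratinocytes, -0.10 for fat cells, 0.51 for mast cells and 0.50 for neutrophils. For mast cells the median of jak1i minus PBS was 0.58, and 6-week PBS replicate 1 was the high array, with Cpa3 at 10.82 there against 7.11 and 8.47. Thrsp, a fat gene, read 6.90, 4.93 and 5.71 and then 8.91, 6.46 and 9.46 under PBS, a difference of 2.43 (adjusted p = 0.458), and its jak1i minus PBS value was 1.96 (adjusted p = 0.555). Snhg12 was no longer called when any array of PBS at 0 weeks or replicate 3 at 6 weeks was left out, and 4 and 2 genes passed without PBS at 6 weeks replicates 1 and 2.

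The change under jak1i differed from that under PBS for 22 genes (0.121%), 20 of them lower (0.11%) and 2 higher (0.011%), by the test of the difference of the changes. Stfa3 had the largest difference, -6.02 (SE 1.11, adjusted p = 0.0386), with a fall under jak1i and values of 10.42, 9.52 and 9.60 and then 11.77, 11.03 and 11.62 under PBS. Ccl5 followed at -3.58 (SE 0.66, adjusted p = 0.0386), Dhx58, an RNA sensor of the antiviral response, at -3.05 (SE 0.60, adjusted p = 0.0458), Bcl3 at -2.52 (SE 0.50, adjusted p = 0.0458) and Havcr2 at -2.02 (SE 0.34, adjusted p = 0.0377). Nkg7, a granule protein of cytotoxic cells, and Runx3, a transcription factor of CD8 T cells, stood at -2.50 and -1.78 and are named after their values were seen. The 2 genes with a higher change under jak1i were Abca1, a cholesterol exporter, and Heph, a copper oxidase of iron export, both at 1.23 (adjusted p = 0.0458 and 0.0386). One of the 3 probe sets of Dhx58 lay at 0.15 in the jak1i comparison, where the one used here lay at -2.99. Gzmb missed this test narrowly at -5.06 (adjusted p = 0.0512), and Cxcl9 at -4.21 (adjusted p = 0.174) and Adipoq at 3.72 (adjusted p = 0.116) did not pass. By list, the test called 2 cytotoxic genes and 1 stressed keratinocyte gene lower. It called 0 genes of the interferon-γ, type I interferon, fat cell, mast cell and sebaceous gland lists.

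This count of 22 depended on single arrays. Under jak1i it was 1, 110 and 0 without 6-week replicates 1, 2 and 3, and 8 and 0 without 0-week replicates 2 and 3. Under PBS it was 424 without 6-week replicate 1 and 0 without any one of the other 5 arrays. PBS at 6 weeks was itself uneven in the fat cell list, with means of 0.19, -1.72 and -0.81 on its 3 arrays, and the part of this in the comparison was not tested. With each array centred on its median, 0 genes passed.

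**Figure D5:**
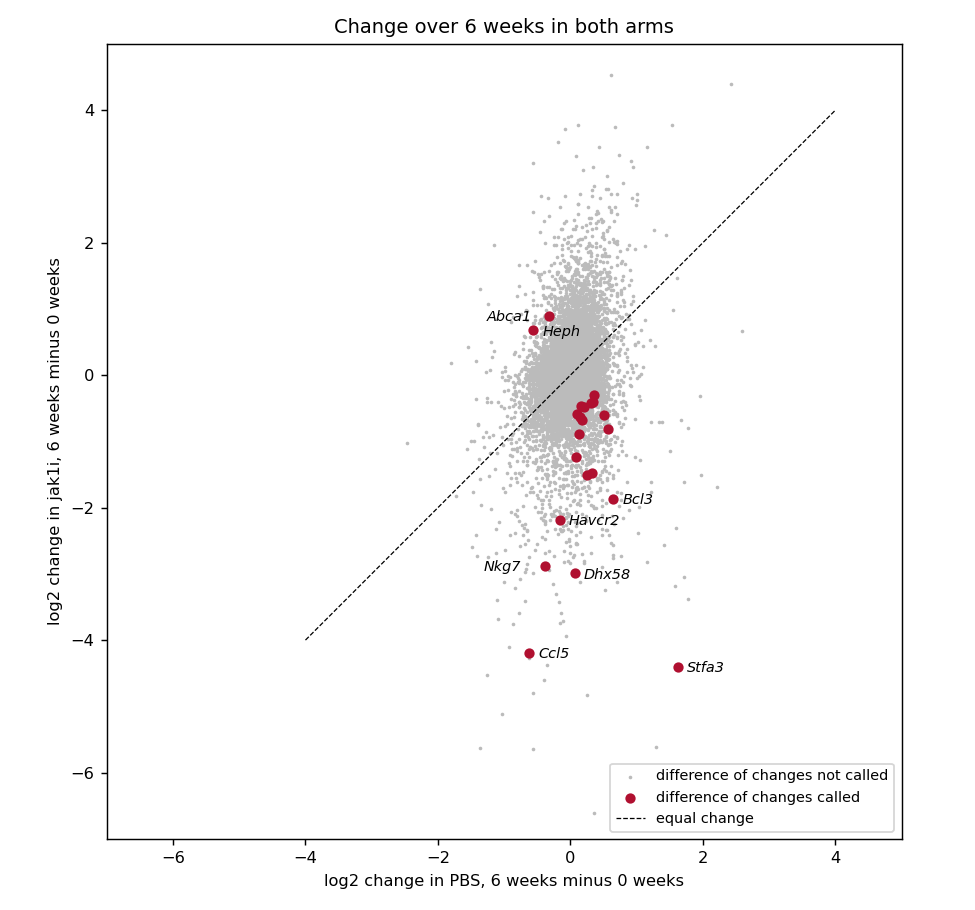
Log2 change from 0 to 6 weeks of each of 18193 genes under PBS (x axis) and under jak1i (y axis); the dashed line marks equal change and red points the 22 genes whose changes differed at an adjusted p under 0.05. Of the red points 20 lie below the line, led by Stfa3 and Ccl5, and 2, Abca1 and Heph, above it.

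The other inhibitor was read at the same time, although doses are not given in the sources used here. Under jak3i from 0 to 6 weeks 573 genes (3.15%) were called, 200 higher (1.1%) and 373 lower (2.05%), and the groups did not overlap for 19.6% of all genes. The changes of the inhibitors share no arrays. Of the 1080 genes higher under jak1i, 1074 had the same sign under jak3i, with medians of 0.80 and 0.59, and of the 1170 lower genes 1158, with medians of -0.70 and -0.49, against 76.5% of all genes. Genes called in both arms made up 13.4% of the jak1i rises and 72.5% of the jak3i rises, and 28.5% and 89.5% of the falls. The test of the difference between both changes called 0 of 18193 genes (0%), with 301 at an unadjusted p under 0.05 in limma and a smallest adjusted p of 0.9997. Without jak1i at 6 weeks replicate 1 it called 1. The jak3i count itself was 2463 without jak3i at 6 weeks replicate 1, whose hair shaft mean was 3.17, and 1020 without 0-week replicate 3. It was 223 and 286 without 6-week replicates 2 and 3 and 211 and 73 without 0-week replicates 1 and 2.

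The intervals of these differences remain wide. Gzmb fell by 5.64 under jak1i and by 4.97 under jak3i, a difference of -0.67 with a 95% interval from -2.82 to 1.48. Its 6-week means, 4.88 and 4.73, were low in both arms, while the 0-week means were 10.52 and 9.70. As the 6-week values may lie at the floor of the probes, this difference says little on the inhibitors. The part of the starting levels in it was not tested. For Cxcl9 the changes were -4.61 and -5.75, a difference of 1.14 with an interval from -1.99 to 4.28. For Krt6b the difference was 0.32 (-3.48 to 4.11) and for Adipoq 1.02 (-1.29 to 3.34). An inequality of a factor of 2 in either direction thus lies inside each of these 4 intervals. The 3 genes with the smallest unadjusted p were Cd3g, Zbtb21, a zinc finger factor, and Hoxd11, a homeobox factor, at -1.46 (-2.24 to -0.69), -0.57 (-0.89 to -0.26) and -0.55 (-0.86 to -0.25). Cd3g fell by 2.31 under jak1i and by 0.85 under jak3i, and none of the 3 passed after adjustment.

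From 6 to 12 weeks of jak1i, 0 of 18193 genes (0%) were called by limma, with 1168 at an unadjusted p under 0.05 and a smallest adjusted p of 0.3052. Gzmb read 4.76, 6.18 and 4.91 at 12 weeks and Cxcl9 8.69, 10.70 and 6.68, both overlapping their 6-week values. Adipoq read 13.37, 12.15 and 12.79, likewise overlapping its 6-week values. Cd8a, at 5.69, 6.41 and 6.13, overlapped too. Cd3g read 7.95, 8.10 and 7.91, Havcr2 5.98, 6.67 and 6.43 and Prf1 6.32, 6.62 and 6.45, each above its 6-week values. Their differences of 1.16, 0.98 and 0.82 did not pass (limma adjusted p = 0.452, 0.482 and 0.482). The groups of 6 and 12 weeks did not overlap for 13% of all genes. Krt31 read 6.26, 7.60 and 6.47, so the high hair array of 6 weeks had no counterpart at 12 weeks, with a difference of -1.83 (SE 1.45, adjusted p = 0.878). Lim2, a lens membrane protein, Fgfbp1, which binds fibroblast growth factors, and Dlk1, a Notch ligand relative, had the smallest unadjusted p, with differences of -0.53, 0.80 and -0.47 and adjusted p of 0.305, 0.452 and 0.452. Fgfbp1 had fallen by 0.99 (SE 0.17, adjusted p = 0.00177) from 0 to 6 weeks, from a range of 11.32 to 11.60 to a range of 10.25 to 10.67, and read 11.22, 11.51 and 11.24 at 12 weeks. Each of the omissions of 6-week replicate 1, 6-week replicate 2 and 12-week replicate 2 left 1 gene called.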

How the data were processed

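Skin RNA was hybridised to Affymetrix arrays after 3' IVT labelling with biotin, per the labels' protocols, and the deposited log2 values were made by the authors with RMA, per the submitters' processing notes. Background correction, quantile normalization and summary are thus shared across arrays, and no scan date or detection call was used here, so a batch was not tested. Probe sets were named through the platform annotation: of 45101, 64 were controls and left out, 34945 named 1 gene, 932 several and 9160 none, with 34741 Entrez identifiers matched. Each gene was represented by its brightest single-gene probe set.

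A limma 3.58.1 model (R 4.3.3) held all 31 arrays in 11 groups, with 20 residual degrees of freedom, and contrasts were called at a Benjamini-Hochberg adjusted p under 0.05. It was tested on simulated data. Named genes were the 15 largest rises and falls with groups that did not overlap (gene models without a name skipped), 3 per other contrast, 4 per gene list and a set list of pathway genes. The genes and lists were chosen with earlier results of these data known. The arms share replicate numbers. Deviations of same-numbered jak1i arrays correlated at -0.09, -0.45 and -0.08 and of PBS arrays at 0.16, 0.38 and 0. For jak3i arrays the values were 0.49, -0.11 and 0.35. No arm was above 0.1 in every pair, and the numbers were not taken as pairs. With 3 arrays per group, these correlations cannot exclude that samples were paired. Alternatives were array centring, a filter on dim genes, the mean of all probe sets, a trended variance, fewer arrays, blocks, list means as covariates and leaving out each array. Promoter sequences are from RefSeq, GRCm38.p6.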

Additional observations from a re-analysis of the deposited data

Results flagged for a closer look

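The change from 0 to 6 weeks differed between jak1i and PBS for 22 genes by the test of the difference of the changes (limma, adjusted p under 0.05). Of those named in the text, Stfa3 stood at -6.02, Ccl5 at -3.58, Dhx58 at -3.05, Bcl3 at -2.52, Nkg7 at -2.50, Havcr2 at -2.02 and Runx3 at -1.78 on the log2 scale, and Abca1 and Heph both at 1.23. The Stfa3 differences had opposite signs, -4.40 under jak1i and 1.62 under PBS, and the PBS difference was not called (SE 0.78, limma adjusted p = 0.509).

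Probe sets that name no gene, or several, were outside the comparison of genes. Of 10092 such probe sets, 234 (2.32%) were called in the jak1i comparison, 74 higher and 160 lower, against 3 in the PBS arm.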

How the results depend on the processing

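The count of 2250 genes was 672 with the compared arrays alone, 1286 with the skeletal muscle mean as a covariate and 506 to 2996 with 1 array left out. It stayed within 1.5 times under the other settings run. The PBS count of 1 was 3 with the mean of all probe sets, 0 with compared arrays only, 5 with the hair shaft mean, 4 with the muscle mean and 0 to 4 with 1 array left out. The jak1i against PBS count of 22 was 0 with arrays centred, 68 without dim genes, 39 with the mean of all probe sets, 118 with compared arrays only, 0 with a random block of arm and number, 58 with the hair shaft mean, 0 with the muscle mean and 0 to 424 with 1 array left out. The jak3i count of 573 was 895 without dim genes, 59 with compared arrays only, 198 with the hair shaft mean and 73 to 2463 with 1 array left out. The counts of 0 for jak1i against jak3i and for 12 against 6 weeks were 0 to 1 with 1 array left out. With the replicate number as a block the counts were 1553 for jak1i, 0 for PBS, 0 for jak1i against PBS and 240 for jak3i. The cause of these shifts was not tested, other than that fewer arrays leave fewer degrees of freedom.

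Of 92 called genes named in the text, 70 kept their call with the compared arrays alone, 83 with the hair shaft mean, 80 with the muscle mean and 54 without jak1i at 6 weeks replicate 1, and none reversed under any setting run. Of genes not called, Ifngr1 turned to -0.03 and Krt31 to 0.06 with the hair shaft mean, and Dlk1 to 0 with the muscle mean and to between -0.14 and 0.01 with 1 array left out. Only 3 arrays per group limit the precision, and of 73 named genes with several probe sets 15 had 1 of opposite sign, 0 of them called.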
